A study of Mus musculus with 24 samples.

Results

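The combination of panthenyl ethyl ether and tocopherol acetate (PEE-TA) was tested on whisker follicles in culture, and 3 of the 24 arrays of the series carry it. These were chosen by their titles, as were the 3 control arrays they are set against. Panthenyl ethyl ether (PEE) is an ether of panthenol, the alcohol form of the vitamin pantothenic acid, and tocopherol acetate (TA) is an ester of vitamin E. Vibrissa follicles were taken from B6C3F1 mice at postnatal day 9 and kept for 24 h in RPMI 1640 with 10% fetal bovine serum. The PEE-TA cultures received 0.3% PEE with 0.024% TA, the PEE cultures 0.3% PEE alone, the TA cultures 0.024% TA alone and the PEE-PH cultures 0.3% PEE with 0.015% pyridoxine hydrochloride (PH), a form of vitamin B6. Control cultures had the same medium and serum and no added compound. Each sample was total RNA of 10 follicles and each group had 3 samples from independent experiments, so each result averages over whole follicles of 1 mouse cross after 1 day without blood supply. The study asked, by its title, how such vitamin mixtures lengthen the hair shaft and whether placental growth factor and its receptor VEGFR-1 take part, and the pair is set here against control and against each compound alone.

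A vibrissa follicle is a large hair follicle with an epithelial root, a dermal papilla, pigment cells, nerve endings and a blood-filled capsule. In its bulb, matrix cells divide and turn into the hair shaft and the inner root sheath, under Wnt and BMP signals that pass between epithelium and papilla. Cells meet reactive compounds through NRF2, a transcription factor that is held down by KEAP1 and switches on enzymes of glutathione metabolism. SREBP2 drives cholesterol synthesis when membrane sterol runs low, and interferons switch on a broad antiviral gene set.

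Signal was measured on one-colour Agilent arrays and is given here as log2 of the processed signal over the 75th percentile of that array. A value of 0 is the 75th percentile, a negative value lies below it, and values of different probes are not compared. Between 58.3 and 62.5% of spots were well above background, the 75th percentile ran from 142 to 248 over the series, and arrays of the same group correlated at r = 0.993 to 0.997 across genes, which are not independent replicates. The 3 PEE arrays had the lowest range, 142 to 147, against 177.3 to 200.1 on PEE-TA arrays and 155.5 to 190.5 on control arrays. Differences were tested by limma over 22065 genes or transcripts at an adjusted p of 0.05, and errors after a difference are standard errors. With 3 arrays per group their number limits the precision. Whisker follicle was the labelled tissue, and all 16 hair shaft keratins and 14 inner root sheath genes tested were well above background on every PEE-TA and control array. The p-values and standard errors rest on the spread between samples of a group, pooled over all 8 groups of the series.

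PEE-TA moved a wide set of genes: 2253 were higher and 3373 lower than in control, which is 25.5% of those tested (10.2% higher and 15.3% lower), and the median of all genes was -0.05. The share of calls that were higher was 40% here, 52.1% by quantile normalization and 52.3% with the value table of the authors. Changes of at least 2-fold were fewer, with 176 genes higher and 508 lower. Leaving out PEE-TA replicate 2 brought the total to 3177 and leaving out control replicate 3 to 3503. The largest rises by name were led by the glutathione transferase Gsta3 at 3.55 ± 0.22 (adjusted p = 2.57e-08). The orphan receptor Gpr20 was at least 3.39-fold higher (adjusted p = 1.02e-06). It was not well above background on any control array. There the mean of the lowest measurable signal, or of the probe itself where higher, stands in for the level. The same holds for each "at least" below, and such bounds apply to the processed signal only. Over the alternative settings listed at the end, the Gpr20 difference ran from 0.19 to 2.99 on the log2 scale and passed in each. Other large rises were in Agt, which encodes angiotensinogen (1.71 ± 0.26, adjusted p = 0.000208), and in the cartilage matrix genes Comp (1.79 ± 0.39, 0.00318) and Cilp2 (1.73 ± 0.39, 0.00351). PEE-TA replicate 1 held the lowest Comp and Cilp2 values of its group, 2.68 and -0.31, against 4.21 and 1.21 in replicate 2. All 3 PEE-TA arrays lay above the control arrays for both genes.

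The largest falls were in immune genes and in a few enzymes and proteases. Slc28a2, a carrier of purine nucleosides, was lower by a factor of at least 5.52 (adjusted p = 0.000136), the schlafen gene Slfn4 at least 2.04-fold lower (0.00135) and the resistin-like gene Retnlg at least 2.34-fold lower (0.00391, and 0.0535 in the authors' value table, where it did not pass). The chemokines Ccl12 and Ppbp fell by 2.73 and 2.67 on the log2 scale. Ms4a4d fell by 3.26 ± 0.69 (adjusted p = 0.00255), with its probe well above background on 1 of 3 PEE-TA arrays, and by 0.50 with normexp, a model-based background correction (adjusted p = 0.000994). Cyp2a5, a cytochrome P450, had -1.59, -2.50 and -2.69 on PEE-TA arrays, against 0.27, -0.08 and 0.65 on control arrays. The arrays did not overlap, and its difference was -2.54 ± 0.29 (adjusted p = 1.35e-05).

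**Figure D1:**
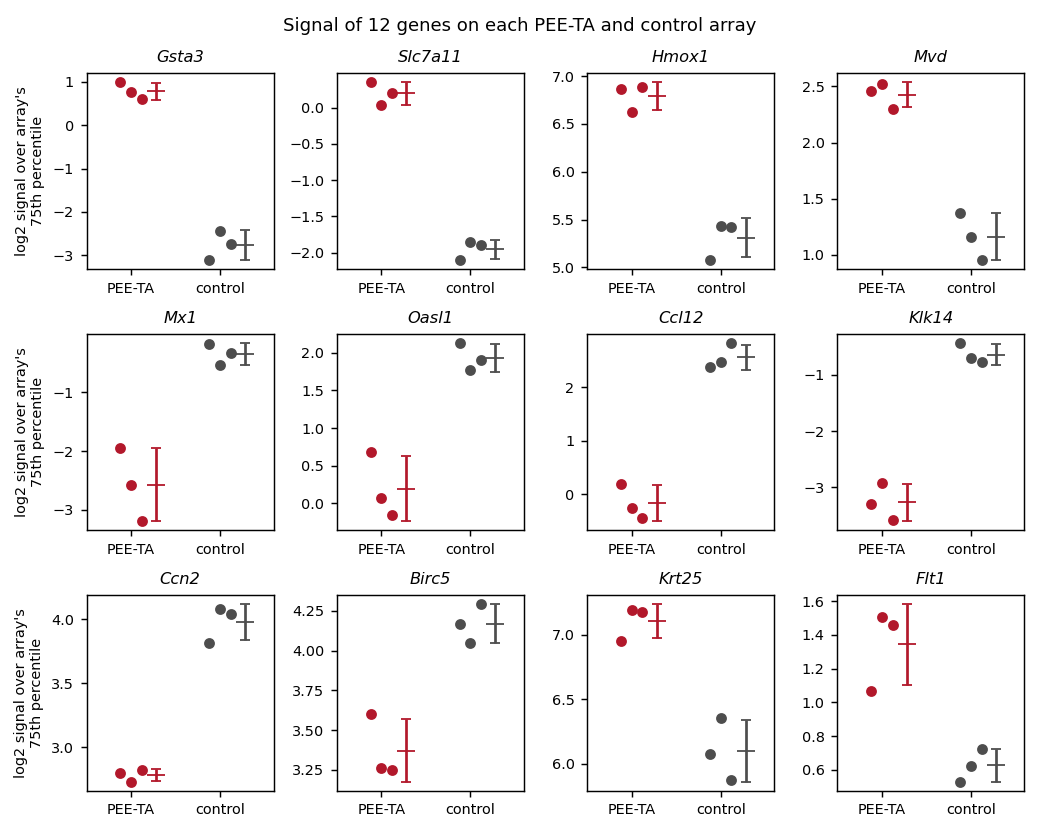
Signal of 12 genes on each PEE-TA array (left, red) and each control array (right, grey), in log2 over the array's 75th percentile, with the mean and SD beside the points (3 arrays each). Points run from replicate 1 to 3. The groups do not overlap for any of the 12 genes: Gsta3, Slc7a11, Hmox1, Mvd, Krt25 and Flt1 are higher with PEE-TA, and Mx1, Oasl1, Ccl12, Klk14, Ccn2 and Birc5 are lower.

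Genes of glutathione metabolism and of the NRF2 response rose together. Of 23 glutathione transferases tested, 14 rose and 1 fell (median 0.44, against -0.05 for all genes). Of 12 genes of glutathione synthesis, cystine uptake and export, 10 rose and 0 fell (median 0.60), and of 15 quinone and carbonyl reductases and NADPH-supplying enzymes, 11 rose and 0 fell (median 0.40). Thioredoxin, peroxiredoxin and peroxidase genes had 9 risers of 17 and 0 fallers (median 0.23), haem breakdown and iron handling 6 of 12 and 0 (0.26), and the remaining NRF2 genes 7 of 12 and 0 (0.29). By comparison 10.2% of all genes rose.

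Gsta3 (NM_001077353, probe at chr1:21255189-21255248 in mm9, plus strand), which conjugates glutathione to reactive compounds, stood at 0.99, 0.76 and 0.60 on PEE-TA arrays, against -3.11, -2.44 and -2.73 on control arrays. The arrays were far apart on every slide, and the mean difference is 11.7-fold. Gsta2 (2.19 ± 0.18, adjusted p = 5.7e-07), Gstm3 (1.59 ± 0.11, 1.4e-07) and Gstm1 (1.46 ± 0.09, 2.57e-08) followed, and probes of such close copies may bind each other's RNA. The faller was Gstt1, at -0.66 ± 0.14 (adjusted p = 0.0022). Slc7a11, the cystine importer (NM_011990, chr3:50176047-50176106, minus strand), had 0.35, 0.04 and 0.20 on PEE-TA arrays, against -2.10, -1.85 and -1.90 on control arrays. All PEE-TA values lay above all control values, and the difference was 2.15 ± 0.18 (adjusted p = 4.28e-07). The 2 subunits of glutamate-cysteine ligase, the rate-limiting enzyme of glutathione synthesis, rose by like amounts: Gclm by 1.36 ± 0.10 (2.13e-07) and the catalytic Gclc by 1.12 ± 0.12 (7.79e-06). Gclm had 4.57, 4.25 and 4.27 on PEE-TA arrays, against 3.04, 3.12 and 2.86 on control arrays.

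Nqo1, a quinone reductase often used as a readout of NRF2, had 0.75, 0.52 and 0.34 on PEE-TA arrays, against -1.10, -1.18 and -1.06 on control arrays. No value overlapped, and the difference was 1.65 ± 0.13 (adjusted p = 2.77e-07). Srxn1, which repairs oxidised peroxiredoxin, rose by 1.42 ± 0.09 (3.99e-08), the hydrogen peroxide enzyme Cat by 1.14 ± 0.10 (1.3e-06) and the secreted peroxidase Gpx3 by 1.20 ± 0.19 (0.000257). Hmox1 (NM_010442), which breaks down haem, had 6.87, 6.62 and 6.88 on PEE-TA arrays, against 5.08, 5.43 and 5.42 on control arrays. It was higher on every slide, by 1.48 ± 0.11 over all (adjusted p = 1.64e-07), and the iron store gene Ftl1 rose by 0.42 ± 0.07 (0.000546). The aldehyde oxidase Aox1 rose by 1.57 ± 0.20 (3.46e-05). Nfe2l2, which encodes NRF2, differed by 0.15 ± 0.08 (adjusted p = 0.173) and Keap1 by 0.13 ± 0.09 (0.306), and neither passed. Of the other regulators listed, Bach1 rose by 0.32 (adjusted p = 0.016) and Mafg by 0.27 (0.013).

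The promoter stretches below hold the letters to which the regulators of these gene groups are known to bind, and are shown for 5 members, as examples. They come from RefSeq on GRCm38.p6. From 250 bases before to 50 after each start were searched on both strands, and a gene counts once if any of its promoters has a match. Capitals mark the match. For NRF2 the letters TGACNNNGC of the antioxidant response element were searched, which some AP-1 sites (TGACTCA) also match. Of 27025 genes with a RefSeq promoter 14% had a match, as had 19 of the 76 genes of these 6 lists with a promoter. Among the 48 of those 76 that rose past the threshold, 15 had a match. For SREBP2 the letters TCACNCCAC were found for 1.44% of all genes and for 1 of 16 cholesterol genes with a promoter, Hmgcs1, which is shown for that reason. For interferon the stimulated response element, TTTC and TTTC with any 2 bases between, was found for 3.99% of all genes and for 22 of 33 interferon and GTPase genes with a promoter. Of those 33 genes 31 passed the test, and all 22 with a match were among them.
Gsta3, chr1:21240434-21240533, plus strand: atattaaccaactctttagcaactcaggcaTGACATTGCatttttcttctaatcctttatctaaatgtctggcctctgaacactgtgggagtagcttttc
Gclm, chr3:122245393-122245492, plus strand: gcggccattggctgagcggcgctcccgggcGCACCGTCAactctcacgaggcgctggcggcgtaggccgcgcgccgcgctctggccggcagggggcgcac
Hmgcs1, chr13:119690184-119690283, plus strand: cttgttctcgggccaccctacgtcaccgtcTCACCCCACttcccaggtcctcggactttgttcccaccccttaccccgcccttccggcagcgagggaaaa
Ddx60, chr8:61927987-61928086, plus strand: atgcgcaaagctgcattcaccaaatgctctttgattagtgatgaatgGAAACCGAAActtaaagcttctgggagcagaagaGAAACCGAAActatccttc
Tgtp2, chr11:49064213-49064312, minus strand: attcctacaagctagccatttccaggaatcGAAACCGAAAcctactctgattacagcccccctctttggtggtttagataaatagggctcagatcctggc
The Gsta3 match lies in the forward direction and that of Gclm reads on the other strand. Ddx60 has a pair of identical interferon matches. A match describes the letters in this window and is no measurement of binding.

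Cholesterol synthesis genes rose together. Of 24 genes of the pathway and SREBP2 targets, 23 rose and 0 fell, with a median of 0.69, and within the slides the median was 0.69, 0.67 and 0.59. Mvd, which makes isopentenyl diphosphate (NM_138656, chr8:124957750-124957809, minus strand), had 2.46, 2.52 and 2.30 on PEE-TA arrays, against 1.37, 1.16 and 0.95 on control arrays. The PEE-TA values were close to one another and all above control, and the difference was 1.27 ± 0.12 (1.6e-06). The late enzymes Tm7sf2 (1.10 ± 0.15, 5.72e-05) and Lss, lanosterol synthase (1.01 ± 0.08, 2.13e-07), rose as well, and Hmgcs1, the first committed step, rose by 0.90 ± 0.11 (1.98e-05). Srebf2, which encodes SREBP2 itself, differed by 0.22 ± 0.10 and did not pass (0.126).

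Of 20 fatty acid synthesis genes 10 rose and 1 fell (median 0.29). Acss2, which makes acetyl-CoA from acetate, rose by 1.28 ± 0.13 (adjusted p = 4.18e-06), the desaturase Scd2 by 0.75 ± 0.09 (1.99e-05) and fatty acid synthase, Fasn, by 0.57 ± 0.08 (7.71e-05). Pnpla3, a lipase, fell by 1.35 ± 0.14 (4.82e-06), with -2.07, -2.39 and -2.50 on PEE-TA arrays, against -0.90, -0.94 and -1.05 on control arrays. Fatty acid oxidation and PPAR targets had 8 risers of 22 and 0 fallers (median 0.16), and leaving out PEE-TA replicate 2 or control replicate 3 left 4 or 5. The sebaceous gland marker list, which shares Fasn, had 1 riser and 1 faller of 8, and its summed linear signal was 34.2 to 36.8 times the 75th percentile on PEE-TA arrays, against 23.5 to 26.3 on control arrays. The part of that list in the lipid genes was not tested.

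**Figure D2:**
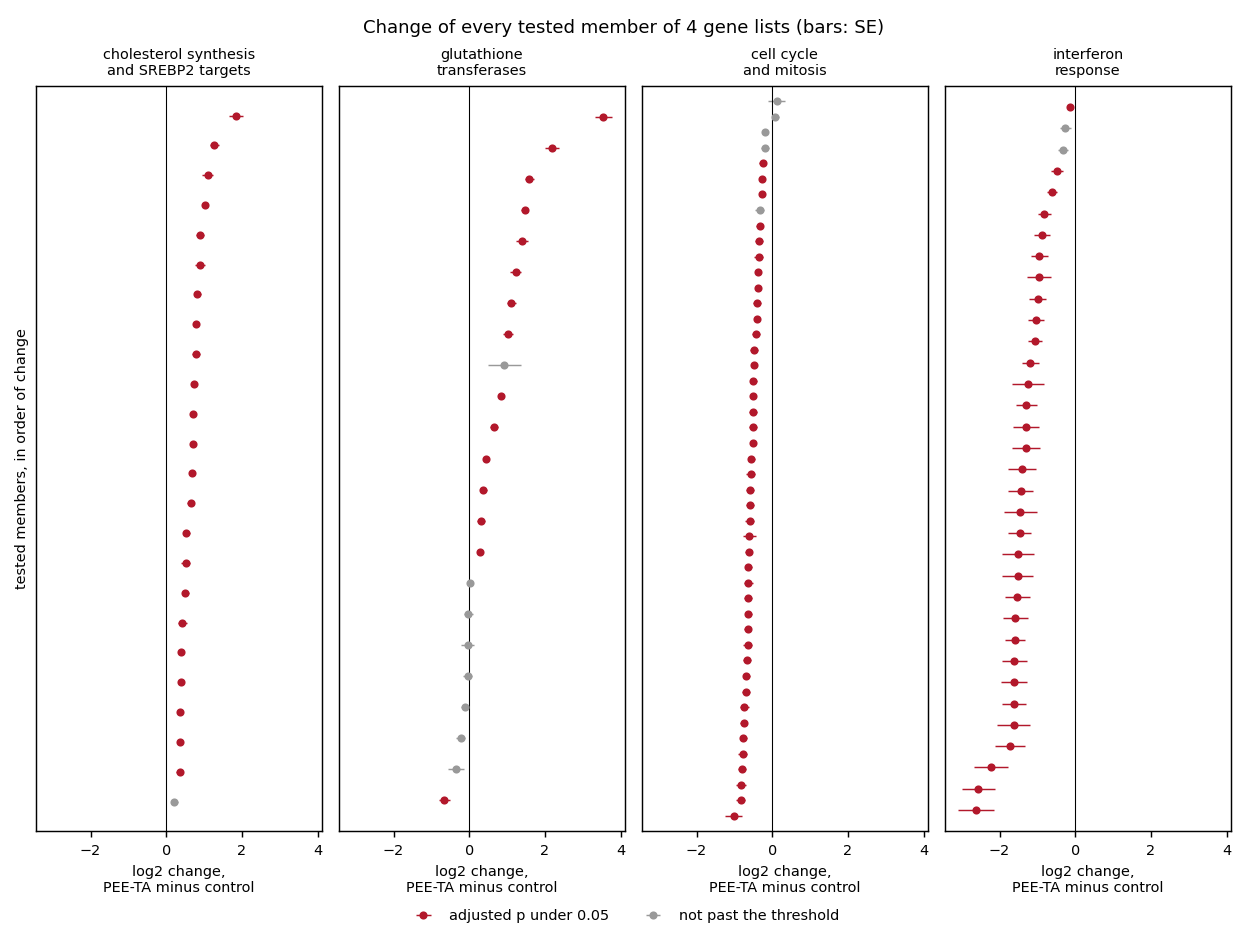
Log2 difference, PEE-TA minus control, of every tested member of 4 lists, in order of its size and with its standard error, 1 point a gene; red points have an adjusted p under 0.05 and grey points do not. In the cholesterol list 23 of 24 members are red and right of 0, in the interferon list 32 of 34 are red and left of 0, and in the cell cycle list 42 of 47 are red and left of 0.

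Genes that handle the added vitamins themselves were also tested. Of 9 genes of vitamin E and lipid vitamin handling 1 passed, where 25.5% of all genes did. It was the lipoprotein receptor Scarb1 (0.31 ± 0.09, adjusted p = 0.0142), and its call ended without PEE-TA replicate 2 (0.0557) or 3 (0.0667). The tocopherol transfer protein gene Ttpa differed by -0.28 ± 0.20 (0.328). Of 17 genes of the pantothenate and coenzyme A pathway, 5 rose and 2 fell (median 0.07), and 0 fell without PEE-TA replicate 2 or control replicate 3. Pank1, which encodes pantothenate kinase and so the first step from pantothenate to coenzyme A, had -1.93, -1.90 and -1.91 on PEE-TA arrays, against -2.46, -2.40 and -2.56 on control arrays. It was higher on all 3 slides, by 0.55 ± 0.10 (0.000795), and Btd, which frees biotin, rose by 0.51 ± 0.07 (9.4e-05).

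Retinoid genes fell more often than they rose. Of 16 tested, 6 fell and 1 rose (median -0.15), and 3 fell without PEE-TA replicate 3. Cyp26a1, which degrades retinoic acid and is induced by it, was at least 1.26-fold lower (adjusted p = 0.00047). It was not well above background on any PEE-TA array and was so on 2 of 3 control arrays. Over the alternative settings its log2 difference ran from -2.67 to -0.23. Aldh1a3, which makes retinoic acid, had 2.16, 2.04 and 1.73 on PEE-TA arrays, against 2.87, 3.19 and 3.27 on control arrays. The groups did not overlap, and the difference was -1.13 ± 0.15 (6.19e-05). Lrat, which stores retinol as an ester, rose by 0.84 ± 0.12 (0.000127). Among 14 cytochromes P450 and AHR genes, 3 rose and 3 fell, and 1 fell without PEE-TA replicate 2 or control replicate 3. The keratinocyte enzyme Cyp2b19 fell by 0.98 ± 0.10 (5.15e-06) and Cyp1b1 rose by 0.63 ± 0.12 (0.00117).

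Interferon response genes fell together. Of 34 genes, 32 fell and 0 rose (median -1.36), where 15.3% of all genes fell. Within the slides the median was -1.15, -1.27 and -1.68, and leaving out PEE-TA replicate 3 left 22. Mx1, an antiviral GTPase (NM_010846, chr16:97668644-97668703, minus strand), had -1.95, -2.57 and -3.19 on PEE-TA arrays, against -0.17, -0.54 and -0.33 on control arrays. The PEE-TA arrays spread over more than 1 log2 unit and all lay below control, with a difference of -2.22 ± 0.45 (adjusted p = 0.0019). Oasl1 had 0.68, 0.07 and -0.16 on PEE-TA arrays, against 2.13, 1.76 and 1.91 on control arrays. Replicate 1 was again the highest PEE-TA array, and the difference was -1.74 ± 0.39 (0.00404). The RNA sensor-related helicase Ddx60 (-2.57 ± 0.44, 0.00049) and interferon beta itself, Ifnb1 (-2.62 ± 0.48, 0.00083), were well above background on 1 of 3 PEE-TA arrays and on all control arrays. With normexp their differences were -0.54 and -0.54 and passed the test (0.00307 and 4.42e-05).

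Guanylate-binding and immunity-related GTPases, which interferon gamma induces to attack intracellular microbes, had 13 fallers of 15 and 0 risers (median -1.24), and 8 fallers without PEE-TA replicate 3. Gbp11 was at least 3.73-fold lower (adjusted p = 0.00149), and over the alternative settings its log2 difference ran from -2.66 to -0.39. Tgtp2, whose promoter is printed above and which has the near-identical copy Tgtp1, had -1.24, -1.45 and -1.69 on PEE-TA arrays, against 1.05, 0.69 and 0.62 on control arrays. The groups were apart by 2.13 to 2.32 within each slide, and the difference was -2.25 ± 0.49 (0.00319).

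Of 28 chemokines 20 fell, 3 rose and 5 did not pass (median -1.13), and 14 fell without PEE-TA replicate 2. Ccl12 (NM_011331, chr11:81916710-81916769, plus strand), which draws monocytes, had 0.20, -0.26 and -0.45 on PEE-TA arrays, against 2.38, 2.48 and 2.83 on control arrays. Its groups were far apart, by -2.73 ± 0.27 (adjusted p = 3.25e-06). Ppbp, which draws neutrophils, had -2.43, -2.56 and -2.48 on PEE-TA arrays, against -0.07, 0.26 and 0.37 on control arrays. The PEE-TA arrays nearly coincided, and the difference was -2.67 ± 0.20 (1.64e-07). The interferon-induced Cxcl10 fell by 2.51 ± 0.71 (0.0151) and Cxcl9 by 2.53 ± 0.75 (0.0205). Both calls ended when single arrays were left out: Cxcl10 without PEE-TA replicate 2 (0.0651) or 3 (0.0625), and Cxcl9 without PEE-TA replicate 2 (0.0849) or 3 (0.0645) or control replicate 2 (0.0623). Both also ended with array signal as a covariate (0.0584 and 0.0883). The risers included Cx3cl1 (0.68 ± 0.14, 0.00161).

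Cytokines and NF-kB targets were mixed, with 10 fallers and 2 risers of 28 (median -0.28) and 6 fallers without PEE-TA replicate 3. The keratinocyte alarmin Il33 fell by 0.98 ± 0.16 (adjusted p = 0.000314), Tslp by 1.22 ± 0.19 (0.000195) and Il24 by 1.55 ± 0.15 (3.17e-06). Csf2, a growth factor of myeloid cells, had -5.11, -5.64 and -5.83 on PEE-TA arrays, against -3.08, -2.65 and -2.47 on control arrays. It was well above background on 1 of 3 PEE-TA arrays, all of which lay below control (-2.79 ± 0.40, 0.000115, and -0.59 with normexp, 0.00165). Il11 (1.27 ± 0.24, 0.00126) and Il19 (1.18 ± 0.30, 0.00798) rose.

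Some macrophage, mast cell and neutrophil markers fell as well. In whole follicles, fewer cells of a type and less RNA per cell cannot be told apart. Of 15 macrophage markers 7 fell and 1 rose (median -0.51, and -0.255 in the authors' value table), with 4 fallers with array signal as a covariate. Their summed signal was 57.7 to 63.3 on PEE-TA arrays, against 64.2 to 79.7 on control arrays. Aif1 had 0.47, 0.46 and 0.34 on PEE-TA arrays, against 1.27, 1.17 and 1.20 on control arrays. Its groups did not overlap (-0.79 ± 0.11, adjusted p = 6.82e-05). Mast cell markers had 3 fallers of 7, with the sum at 17.3 to 23.6 on PEE-TA arrays, against 23.5 to 39.3 on control arrays. Without control replicate 2 the fallers were 6, and without PEE-TA replicate 2 or 3 or control replicate 1 or 3 there was 1. Neutrophil markers had 3 fallers of 7, with sums of 21.5 to 24.1 on PEE-TA arrays, against 25.8 to 32.7 on control arrays, and 1 faller without PEE-TA replicate 2 or 3 or control replicate 1 or 3. Their median of -0.34 was 0.04 in the authors' value table. T and NK cell markers had 0 of 8 past the threshold by limma and Langerhans and dendritic cell markers 1 of 8, Itgax. The part of these cells in the fall of interferon and chemokine genes was not tested.

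Cell cycle genes fell together. Of 47, 42 fell and 0 rose (median -0.56), with 36 fallers without PEE-TA replicate 2. Birc5, a survivin needed in mitosis (NM_001012273), had 3.60, 3.26 and 3.25 on PEE-TA arrays, against 4.16, 4.05 and 4.29 on control arrays. The groups did not overlap, and the difference was -0.80 ± 0.11 (adjusted p = 8.4e-05). Tk1, which makes thymidine nucleotides, fell by 0.83 ± 0.13 (0.000191) and the replication factor Gins2 by 0.84 ± 0.12 (8.19e-05). Cdk1 and Cdk2 differed by 0.12 and 0.08 and did not pass (0.739 and 0.482). Histone genes fell in 12 of 18 cases, with 1 riser (median -0.56). H1f1 had -0.12, -0.75 and -0.71 on PEE-TA arrays, against 0.61, 0.47 and 0.43 on control arrays. Every PEE-TA array lay below control (-1.03 ± 0.13, 4.56e-05), and near-identical histone copies may share signal.

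Some p53 and chaperone genes rose, while more ATF4 stress genes fell than rose. Of 24 p53 and cell death genes 8 rose and 1 fell (median 0.175). Cdkn1a, the p21 inhibitor of cyclin-dependent kinases, had 4.57, 4.56 and 4.53 on PEE-TA arrays, against 4.18, 4.12 and 4.02 on control arrays. The shift was small and tight (0.45 ± 0.06, adjusted p = 9.79e-05). Trp53inp1 rose by 0.81 ± 0.11 (0.000104), Gdf15 by 0.73 ± 0.12 (0.000452) and Gadd45a by 0.65 ± 0.10 (0.000179). Of 27 genes of the ATF4 stress response 8 fell, 2 rose and 17 did not pass (median -0.07, against -0.05 for all genes), with 5 fallers without PEE-TA replicate 2 or 3 or control replicate 2. All 3 serine synthesis enzymes fell: Psph by 0.77 ± 0.10 (4.23e-05), Phgdh by 0.58 ± 0.09 (0.000136) and Psat1 by 0.54 ± 0.10 (0.0011). Heat shock and chaperone genes had 6 risers and 1 faller of 27, led by Hspa1a (0.67 ± 0.11, 0.000342).

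Inner root sheath genes rose. Of 14 tested, 7 rose and 1 fell (median 0.49). Krt25, a keratin of all inner root sheath layers, had 6.95, 7.19 and 7.18 on PEE-TA arrays, against 6.07, 6.35 and 5.87 on control arrays. The groups did not overlap, and the difference was 1.01 ± 0.16 (adjusted p = 0.000342). Krt27 (0.86 ± 0.13, 0.000206), Krt28 (0.79 ± 0.19, 0.00508) and Padi3, which modifies trichohyalin (0.84 ± 0.18, 0.00277), rose with it, and the protease Ctsl fell by 0.37 ± 0.09 (0.00435). The hair shaft keratins had like medians and mostly did not pass: 0 of 9 type I keratins were past the threshold by limma (median 0.49), and 2 of 7 type II keratins were (median 0.70). Krt87 (0.77 ± 0.27, 0.0446) and Krt82 (0.76 ± 0.28, 0.0493) were those 2. Without PEE-TA replicate 1 or 2 or control replicate 3, 0 of the 7 passed, and without control replicate 1 or 2, 1 did. Regulators of the hair matrix had 11 risers and 1 faller of 24 (median 0.45), and 6 risers without PEE-TA replicate 2 or control replicate 3. Foxn1, the nude gene needed for shaft keratins, rose by 0.93 ± 0.23 (0.00656), Msx2 by 0.95 ± 0.24 (0.00771, and 0.0527 with array signal as a covariate) and Padi1 by 0.72 ± 0.12 (0.000467).

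Outer root sheath and epidermal genes fell in 8 of 15 cases, with 1 riser (median -0.27, and -0.08 under quantile normalization), and 5 fell without PEE-TA replicate 3. Krt6b, a keratin of the companion layer and of stressed epidermis, had 5.55, 5.41 and 5.11 on PEE-TA arrays, against 6.29, 6.27 and 6.31 on control arrays. All PEE-TA values were lower (-0.94 ± 0.13, adjusted p = 0.000116). Kallikreins, their inhibitors and cornified envelope genes had 11 fallers and 2 risers of 22 (median -0.32). Klk14, a serine protease of skin shedding (NM_174866, chr7:50950330-50950389, plus strand), had -3.29, -2.92 and -3.58 on PEE-TA arrays, against -0.43, -0.70 and -0.78 on control arrays. The difference of -2.63 ± 0.22 (5.7e-07) is 6.18-fold, and Klk13 fell by 0.90 ± 0.10 (9.39e-06). The late cornified envelope gene Lce3c rose by 0.95 ± 0.17 (0.000625).

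Signals between papilla and epithelium changed in both directions. Wnt pathway genes had 13 risers and 2 fallers of 40 (median 0.29), with 7 risers without PEE-TA replicate 2 or control replicate 3. The receptor Fzd1 rose by 0.77 ± 0.12 (adjusted p = 0.000282), while the ligand Wnt7a fell by 0.73 ± 0.17 (0.00469, and 0.0676 with only the arrays compared). BMP and hedgehog genes had 9 risers and 3 fallers of 28 (median 0.12), with 4 risers without PEE-TA replicate 2 or control replicate 3. Bmp6, a ligand made in the papilla, had -0.74, -0.46 and -0.48 on PEE-TA arrays, against -1.43, -1.82 and -1.81 on control arrays. It was higher on each slide (1.13 ± 0.13, 2.07e-05). Fst, which encodes the activin antagonist follistatin, had 1.15, 0.66 and 0.79 on PEE-TA arrays, against 1.87, 2.07 and 2.23 on control arrays. It was lower on each slide (-1.19 ± 0.12, 6.15e-06), and Inhba, the activin subunit, fell by 0.87 ± 0.12 (6.28e-05). Dermal papilla genes had 9 risers and 3 fallers of 20 (median 0.18), with 5 risers without PEE-TA replicate 2 or 3 and 1 faller without PEE-TA replicate 3 or control replicate 1 or 3. Hair follicle stem cell genes had 2 risers and 1 faller of 15, among them Gas1 (0.68 ± 0.10, 0.000158). Pigment cell genes had 4 risers and 2 fallers of 16 (median 0.11, and 0.24 with 7 risers under quantile normalization), with 2 risers without PEE-TA replicate 2 or control replicate 3 and 0 fallers without PEE-TA replicate 3, and the endothelin receptor Ednrb rose by 0.82 ± 0.13 (0.000335) and Kit, the stem cell factor receptor, by 0.57 ± 0.12 (0.00237).

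Ccn2 and Thbs1, matricellular genes known as targets of YAP and TGF-beta signals, fell. Ccn2 (NM_010217, chr10:24318281-24318340, plus strand), which encodes connective tissue growth factor, had 2.80, 2.73 and 2.82 on PEE-TA arrays, against 3.82, 4.08 and 4.04 on control arrays. Both groups were tight and far apart (-1.20 ± 0.08, adjusted p = 4.78e-08). Thbs1, thrombospondin 1, fell by 1.20 ± 0.11 (1.84e-06). Over the list of metalloproteinases and matricellular proteins 8 fell and 3 rose of 30 (median -0.075), and 5 fell without control replicate 3. Mmp2, a gelatinase of fibroblasts, rose by 1.14 ± 0.19 (0.00047). Collagens had 7 risers and 1 faller of 21 (median 0.26), with 3 risers without PEE-TA replicate 2 or 3 and 4 without control replicate 2. The basement membrane chains Col4a1 (0.89 ± 0.12, 5.85e-05) and Col4a2 (0.85 ± 0.15, 0.000532), which are transcribed from a shared promoter, rose by like amounts. Fibroblast markers had 2 risers and 2 fallers of 10, with sums of 535 to 751 on PEE-TA arrays, against 482 to 537 on control arrays, and 0 risers without PEE-TA replicate 2 or 3 or control replicate 2. The collagen gene Col1a2 was a riser by its brightest probe (0.66). Of its 3 probes 2 were lower, and the mean of its probes fell by 0.73 (adjusted p = 0.00047 by limma).

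In the VEGF family Flt1, Pgf, Kdr and Nrp1 rose and the lymphatic ligands Vegfc and Vegfd fell. Of 10 genes 4 rose and 2 fell (median 0.31), with 2 risers without PEE-TA replicate 2. Flt1, the receptor of placental growth factor, had 1.07, 1.51 and 1.46 on PEE-TA arrays, against 0.53, 0.62 and 0.73 on control arrays. The groups did not overlap (0.72 ± 0.15, adjusted p = 0.00197). Pgf, which encodes placental growth factor, had 0.20, 0.68 and 0.44 on PEE-TA arrays, against -0.06, -0.13 and -0.05 on control arrays. It rose by 0.52 ± 0.14 (0.0117), and without PEE-TA replicate 2 it did not pass (0.0786). Vegfa had 2.77, 3.11 and 2.92 on PEE-TA arrays, against 2.63, 2.50 and 2.63 on control arrays, and did not pass (0.35 ± 0.16, 0.129). Of its 4 tested probes 3 were higher and 1 lower, with differences from -0.67 to 0.64. Kdr, the main VEGF receptor of blood vessels, rose by 0.40 ± 0.13 (0.0286), and leaving out any of 5 of the 6 arrays ended that call. The co-receptor Nrp1 rose by 0.48 ± 0.08 (0.000453), though 2 of its 5 probes were lower and their mean did not pass (0.591). Vegfc and Vegfd, ligands of lymphatic vessels, fell by 0.60 ± 0.12 (0.00179) and 0.51 ± 0.11 (0.00368), and Vegfd did not pass with only the arrays compared (0.0825).

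Blood vessel markers moved with Flt1. Of 10 blood endothelial markers 8 rose and 0 fell (median 0.61, and 0.26, 0.93 and 0.63 within slides), and 4 rose without PEE-TA replicate 2 or 3 and 5 without control replicate 2. The angiopoietin receptor Tek had -2.02, -1.64 and -1.57 on PEE-TA arrays, against -2.43, -2.67 and -2.51 on control arrays. All PEE-TA arrays were above control (0.79 ± 0.17, adjusted p = 0.00321), and the junction gene Cdh5 rose by 0.74 ± 0.16 (0.0032). The summed signal of the markers was 58.9 to 67.3 on PEE-TA arrays, against 57.2 to 62.8 on control arrays. It was 68.3 to 75.8 on PEE arrays and 60.6 to 67.5 on TA arrays. Of the 10 markers 0 were higher and 1 lower than with PEE (median 0.02), and 0 passed against TA (median 0.19). Lymphatic markers had 0 of 7 past the threshold by limma. The part of vessel cell number in the Flt1 difference was not tested. Hypoxia and glycolysis genes had 7 risers and 0 fallers of 25 (median 0.305), with 4 risers without PEE-TA replicate 2 or control replicate 2. Car9, a carbonic anhydrase induced by low oxygen, rose by 0.94 ± 0.23 (0.00652) and Epas1, an oxygen-regulated factor of endothelium, by 0.65 ± 0.10 (0.000316).

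Skeletal muscle markers had 13 risers of 20 and 0 fallers (median 1.02), with 5 risers without PEE-TA replicate 3, 6 without control replicate 2 and 8 without control replicate 3. Their summed signal was 115 to 206 on PEE-TA arrays, against 73.1 to 87.3 on control arrays, and its source in the tissue was not tested. Actn2, which anchors actin in the muscle Z-disc, had 1.18, 1.00 and 1.57 on PEE-TA arrays, against 0.07, -0.04 and -0.20 on control arrays. The groups did not overlap (1.31 ± 0.29, adjusted p = 0.00305), and the muscle ubiquitin ligase Trim63 rose by 1.75 ± 0.43 (0.00717). Among 15 genes of nerve cytoskeleton and neuropeptides 6 rose and 3 fell (median 0.25). The neurofilament gene Nefm (1.29 ± 0.24, 0.000945) and Tac1, which encodes substance P (1.57 ± 0.34, 0.00268), rose, while the axon growth gene Gap43 fell by 0.79 ± 0.12 (0.000148). With normexp background correction 1 of the 15 rose, and Nefm and Tac1 did not pass (0.116 and 0.124). Schwann cell and nerve markers had 1 riser of 9 and 0 fallers (median -0.31), and 0 risers without PEE-TA replicate 3. Of 6 Merkel cell markers 2 rose, Krt20 (1.31 ± 0.27, 0.00179) and Isl1 (1.18 ± 0.30, 0.00884), 2 fell (0 without PEE-TA replicate 1 or 3 or control replicate 2 or 3), and with normexp 0 rose.

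**Figure D3:**
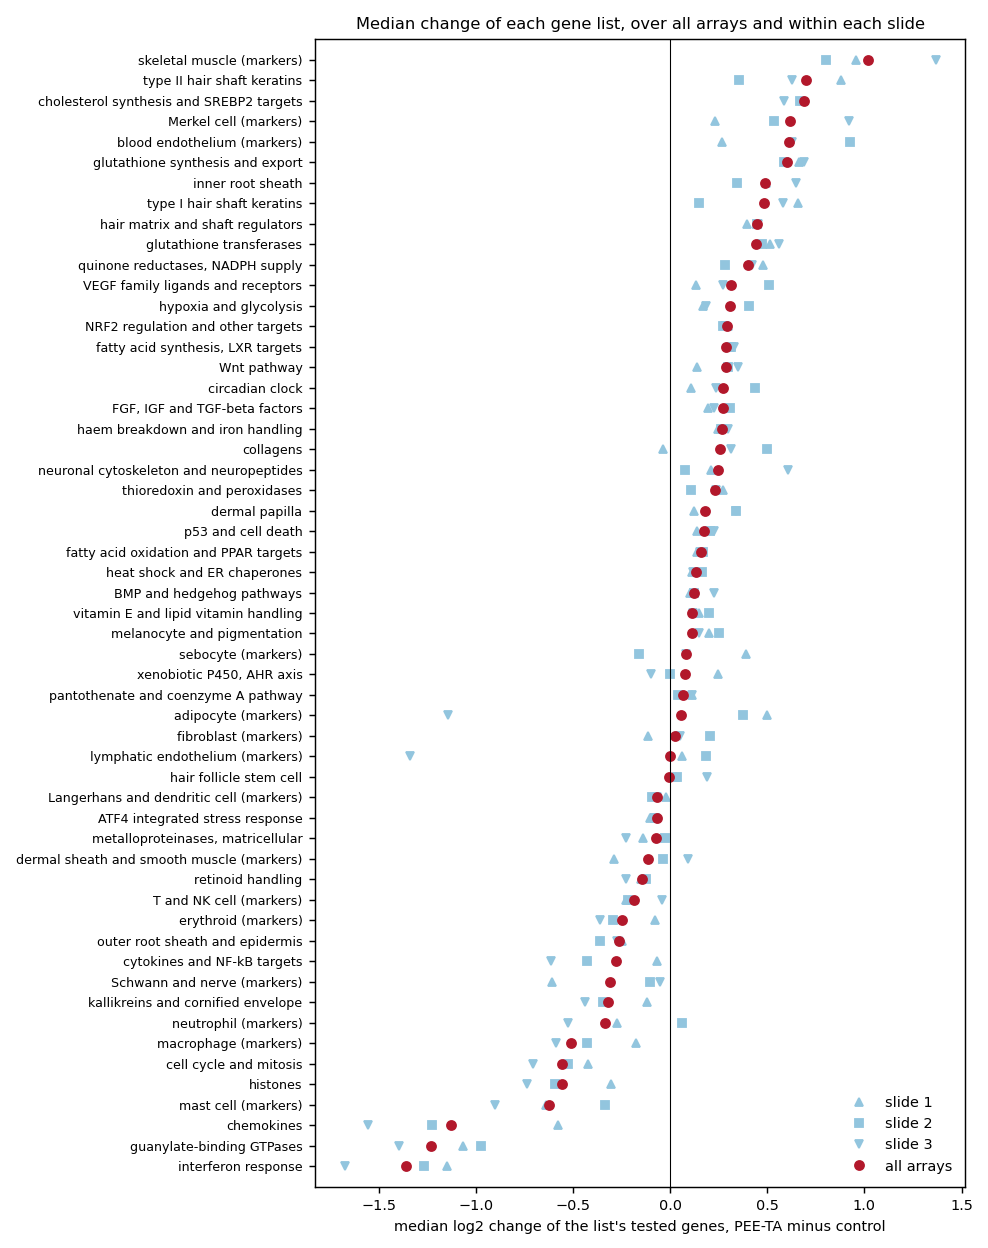
Median log2 difference, PEE-TA minus control, of the tested genes of each list, over all arrays (red circles) and within each of the 3 slides (blue marks); lists that end in (markers) are cell type markers. The slide marks lie near the red circle for the cholesterol and glutathione lists, with all of them right of 0, and spread by more for muscle, endothelium and chemokines.

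The same genes were then set beside PEE and TA alone. Against TA alone PEE-TA differed in 1469 genes, 671 higher and 798 lower, which is 6.66% of those tested (3.04% higher and 3.62% lower). Leaving out PEE-TA replicate 2 or 3 brought the count to 798 or 730 and leaving out TA replicate 1 to 937. The cholesterol list had 23 risers of 24 against TA (median 0.67), glutathione transferases 11 of 23 (0.53) and glutathione synthesis 9 of 12 (0.76), while 34 of 47 cell cycle genes were lower (median -0.43) and 8 of 34 interferon genes were (-0.93). Gsta3 had a mean ± SD of 0.79 ± 0.20 with PEE-TA and -3.72 ± 0.22 with TA (n = 3 each), a difference of 4.51 ± 0.22 (adjusted p = 6.17e-10). Hmox1 had 6.79 ± 0.15 with PEE-TA and 4.46 ± 0.04 with TA, 2.33 ± 0.11 apart (5.67e-10). Klk14 was lower than with TA by 2.51 ± 0.22 (9.81e-07) and Ccl12 by 2.19 ± 0.27 (4.41e-05), and Cyp26a1 was at least 2.12-fold lower (7.56e-05). Inner root sheath keratins, muscle markers and Pgf were not among the calls against TA, with 0.30 ± 0.16 for Krt25 (0.341), 0.45 ± 0.29 for Actn2 (0.427) and -0.09 ± 0.14 for Pgf (0.789).

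Against PEE alone PEE-TA differed in 5115 genes, 1766 higher and 3349 lower, 23.2% of those tested (8% higher and 15.2% lower). The share of calls that were higher was 34.5% here, 49.1% by quantile normalization and 48.2% with the value table of the authors. This count moved with the signal of the arrays, whose part in it was not tested further. All genes were split by mean level into 10 bins of equal size. The share that fell was 21.8% in bin 1, the dimmest, 8.2% in bin 8 and 18.3% in bin 10, the brightest. With the 75th percentile of each array as a covariate 217 genes differed, 41 higher and 176 lower. Leaving out PEE-TA replicate 2 gave 2758 and leaving out PEE replicate 3 gave 3294. Cholesterol genes had 0 of 24 past the threshold by limma against PEE (median -0.00), and Mvd had 2.43 ± 0.11 with PEE-TA and 2.36 ± 0.05 with PEE. Its difference was 0.06 ± 0.12 (adjusted p = 0.731). Of interferon genes 2 of 34 were lower than with PEE and 0 higher (median 0.11), and of cell cycle genes 4 of 47 and 0 (-0.16). Of chemokines 5 of 28 were lower than with PEE and 2 higher (median -0.45). Of glutathione transferases 3 of 23 were higher and 3 lower than with PEE (median 0.01), of glutathione synthesis genes 2 of 12 and 3 (-0.20), of quinone reductases and NADPH suppliers 0 of 15 and 4, of the thioredoxin and peroxidase list 2 of 17 and 6, of haem and iron genes 2 of 12 and 5, and of the remaining NRF2 genes 1 of 12 and 0. Lower than with PEE were Gsta3 by 0.73 ± 0.22 (0.0229), Gsta2 by 0.95 ± 0.18 (0.00138), Gsta4 by 0.71 ± 0.14 (0.00184), Nqo1 by 0.50 ± 0.13 (0.0103) and Srxn1 by 0.39 ± 0.09 (0.00551).

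Hair and muscle genes were higher than with PEE alone when array signal was not a covariate. With that covariate 41 of all genes tested were higher, and the lists below were not counted under it. Of the hair shaft keratins 6 of 9 type I (median 0.89) and 5 of 7 type II (median 1.04) rose against PEE, as did 9 of 14 inner root sheath genes (0.65, with 1 faller), 14 of 24 matrix regulators (0.51, with 1 faller), 17 of 40 Wnt genes (0.38, with 2 fallers) and 10 of 20 muscle markers (0.99). Krt25 had 7.11 ± 0.13 with PEE-TA and 5.82 ± 0.23 with PEE, and its difference was 1.29 ± 0.16 (adjusted p = 5.16e-05). Bmp6 had -0.56 ± 0.16 with PEE-TA, -1.26 ± 0.16 with PEE, -1.32 ± 0.22 with TA and -1.69 ± 0.23 in control. It was higher than with PEE (0.70 ± 0.13, 0.00125) and than with TA (0.76 ± 0.13, 0.00179). Aldh1a3 had 1.98 ± 0.22 with PEE-TA, 2.77 ± 0.04 with PEE, 2.65 ± 0.21 with TA and 3.11 ± 0.21 in control, and was lower than with either (-0.80 ± 0.15, 0.00122 and -0.67 ± 0.15, 0.0109). Among the genes that differed most from PEE, the noradrenaline enzyme Dbh (1.78 ± 0.20, 1.87e-05) and the disaccharidase Mgam (-1.92 ± 0.19, 1.18e-05) also passed with the array covariate, as did Pcdhgb1 (-1.99 ± 0.21, 1.49e-05). The other 13 of 16 did not, and Dbh did not pass with normexp (0.376). Erythroid markers were lower in 4 of 6 cases (median -0.72), with sums of 1080 to 1210 on PEE-TA arrays, against 1750 to 1910 on PEE arrays.

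**Figure D4:**
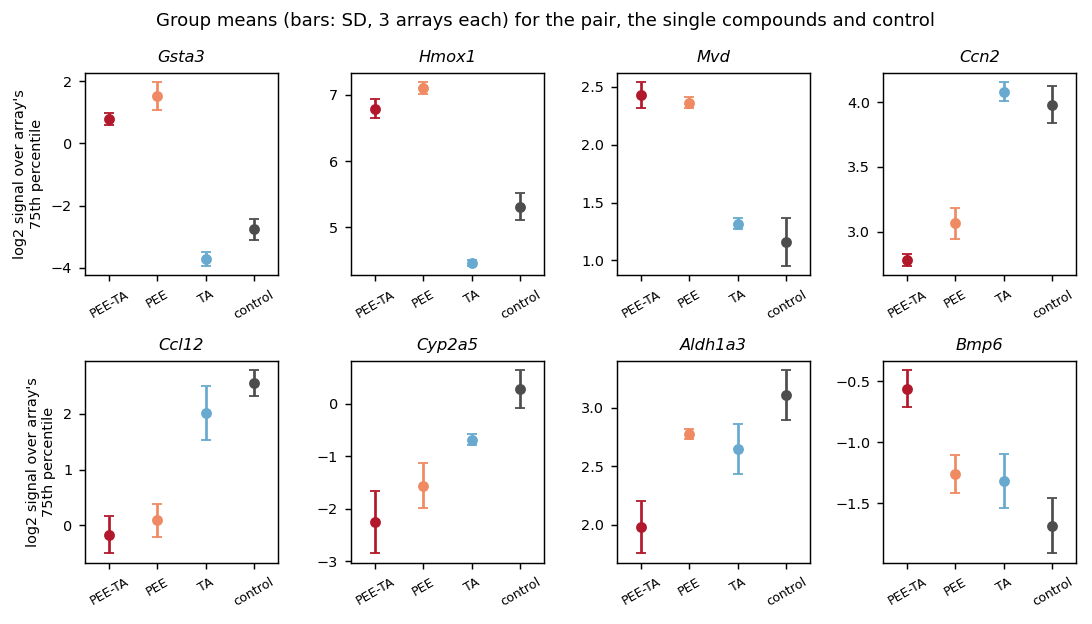
Mean and SD (3 arrays each) of 8 genes with PEE-TA, PEE, TA and in control, from left to right, in log2 over the array's 75th percentile. The means of Gsta3, Hmox1, Mvd, Ccn2 and Ccl12 with PEE-TA lie closer to PEE than to TA, while Aldh1a3 is lower and Bmp6 higher with PEE-TA than in the other 3 groups.

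**Figure D5:**
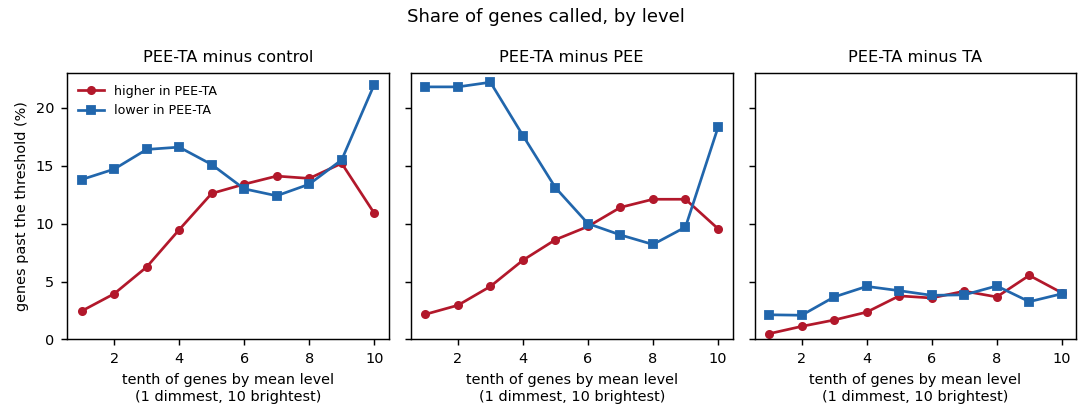
Share of genes (percent) that were higher (red circles) or lower (blue squares) at an adjusted p under 0.05, in 10 bins of genes from the dimmest (1) to the brightest (10) mean level, for PEE-TA minus control, minus PEE and minus TA. Against PEE the share that was lower is 21.8% in bin 1, 8.2% in bin 8 and 18.3% in bin 10.

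Few genes separated PEE-TA from the other pair that holds PEE. Against PEE-PH 3 genes passed, 0.0136% of those tested (2 higher, 0.00906%, and 1 lower, 0.00453%), while 1694 had an unadjusted p under 0.05. Rbp7, a retinol-binding protein, had 0.64 ± 0.17 with PEE-TA and a mean of -1.17 with PEE-PH, 1.81 ± 0.23 apart (adjusted p = 0.00774). Its call ended without PEE-PH replicate 1 (0.0995) or PEE-TA replicate 1 (0.0763). G0s2, a lipase inhibitor, was 0.77 ± 0.12 higher (0.0296), and leaving out any 1 of the 6 arrays ended that call (0.0672 to 0.212). The remaining one has no gene name.

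Few genes separated the pair from the sum of its parts on the log2 scale. The difference between PEE-TA and the summed effects of PEE and TA passed for 15 genes, all lower with the pair (0.068% of those tested), while 1844 had an unadjusted p under 0.05. For Gsta3 it was 0.23 ± 0.31 (adjusted p = 0.873), for Mvd -0.10 ± 0.17 (0.903), for Ccl12 0.28 ± 0.38 (0.867), for Krt25 0.58 ± 0.23 (0.507) and for Flt1 0.05 ± 0.21 (0.964). Such a p does not show that the effects add up, since the standard error of this difference is larger than that of a pair of groups.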

How the data were processed

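Total RNA of 24 samples (8 groups of 3) was hybridised to one-colour Agilent mouse arrays. Per the file headers, the deposited intensity values are Feature Extraction 12.0.3.1 processed signals (background-subtracted, mm9 probe positions). The authors also deposited a log2 value table, whose 24 columns each matched their own array best; how it was normalized is not given in the sources used here. From the intensities, log2 of the processed signal minus the log2 75th percentile of the array was computed for 56605 probes. Probes entered the test where some group had them well above background on all 3 of its arrays, and the brightest of a gene's probes stood for it. All 8 groups were fitted together in limma 3.58.1 (R 4.3.3), with Benjamini-Hochberg adjustment over 22065 genes and a threshold of 0.05. Symbols of 35405 probes were matched by accession to RefSeq. No spot was saturated.

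The PEE-TA arrays and gene lists were chosen with earlier results of these data known. Named genes are the 15 largest rises and falls against control whose arrays do not overlap, up to 4 risers and 4 fallers of each list, Pgf, Flt1, Vegfa and Kdr, and the 8 largest each way elsewhere; gene models were left out. Hmgcs1, Cdkn1a, Cdk1, Cdk2, Nfe2l2, Keap1, Bach1, Mafg, Srebf2 and Ttpa were chosen after their values were seen. Alternatives were quantile normalization, the value table, normexp background correction (offset 50), no filter, the mean of probes, a trended prior, only the arrays compared, array signal as a covariate, the replicate number as a block, and leaving out arrays. Some genes that this rule names are not reported here.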

Additional observations from a re-analysis of the deposited data

Results flagged for a closer look

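For 7 named genes the pair differed from the summed effects of its compounds by a test of that difference itself (limma, adjusted p), and all 7 were lower with the pair than the sum. C2cd4c differed by -1.48 (0.0317), Defa1 by -1.33 (0.0395) and Alas2, the first enzyme of haem synthesis in red cell precursors, by -1.23 (0.0377). Il12b, a cytokine subunit, differed by -1.2 (0.0377), the olfactory receptor Olfr1495 by -1.18 (0.0317), Tat, which breaks down tyrosine, by -1.15 (0.0317) and Cfap46 by -1.02 (0.0395). Alas2 had a mean of 3.12 with PEE-TA, against 4.08 in control. Leaving out any of 10 of the 12 arrays ended the call of Tat (0.0583 to 0.119), and any of 11 ended each of the others (0.0541 to 0.159).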

How the results depend on the processing

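Against control (5626 genes) the count was 3710 with array signal as a covariate, 3198 with only the arrays compared, 3177 to 5793 without single arrays and down to 1305 without replicate number 2 of all groups. Against PEE (5115) it was 217 with the covariate, 12076 with no filter on dim probes (16.2% higher, median of all genes -0.229), 11573 with normexp, 2754 with only the arrays compared, 2758 to 5123 without single arrays and down to 1589 without number 2. Against TA (1469) it was 167 with only the arrays compared (56.3% higher), 730 to 1583 without single arrays and down to 253 without number 2. Against PEE-PH (3) it was 0 with only the arrays compared, 5 with a trended prior and 0 to 4 without single arrays. Against the sum (15) it was 0 with the covariate, no filter, only the arrays compared or quantile normalization, 2 with the value table, 7 with normexp, 6 with a trended prior and 0 to 49 without single arrays, the highest without control replicate 3. With the replicate number as a block the counts were 6061, 5716, 1541, 2 and 67. Numbers were not treated as pairs in the main test, and each number was also 1 slide. The deviations of PEE-TA and control arrays of the same number correlated at -0.013, 0.188 and 0.312. With control arrays of other numbers the highest values were 0.073, 0.078 and -0.069. With PEE and with TA the same number gave the higher value each time, and with PEE-PH for number 3 only. Effects of a shared slide or experiment were not tested further. Under the block 4 of 241 named calls against control ended, Krt87 among them. With no filter the median against control was -0.139. Signs turned with normexp for Dusp27 (-0.13), Igfals (-0.055), Lrrc24 (-0.18) and Mylk4 (-0.031) against PEE and for Ahrr (-0.032) and Spon1 (-0.0083) against control, and with the mean of probes for Col1a2 (-0.73), Eda2r (-0.038) and Trpm1 (0.17) against control. Of 241 named genes against control 94 kept direction and call in all settings and 173 when single arrays were left out. The causes were not tested; dim probes limit the low genes.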
